A study of Homo sapiens with 4 samples.

Results

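The genes described here are the ZNF zinc finger genes that were expressed in a human liver tumour line. A row of the gene table was taken where its symbol was ZNF followed by a number, with or without a final letter, and where its mean level over the 4 libraries was at least 10 CPM (reads of a gene scaled to the library's reads on all genes, spike-ins left out). Members were thus chosen by their measured level, and 253 of 510 ZNF rows (49.6%) among 42169 gene rows met the rule. The last genes inside were ZNF569 at 10.1, ZNF567 at 10.2 and ZNF41 and ZNF85 at 10.3 CPM. The first outside were ZNF232 at 9.96, ZNF213 at 9.91, ZNF202 at 9.79 and ZNF133 at 9.78 CPM. Of the 257 ZNF rows under the level, 41 had no count in any library. All 253 members had enough counts to be tested, and all matched a single protein-coding gene of GENCODE release 29.

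The study concerns the turnover of PPP1R15A mRNA, which encodes GADD34. It compared Huh7 cells, a hepatoma line, of 2 kinds: control cell clone 1, labelled WT, and clone 18, in which Brf1 and TTP were knocked out together (DKO). These proteins bind AU-rich elements of mRNAs and promote their decay. Both clones were kept in DMSO for 3 h and exposed to actinomycin D, an inhibitor of transcription, at 5 µg/ml for the last 10 min, so that no library came from cells without it. There were 2 libraries per clone, which the labels do not tie to separate cultures, and p-values therefore cover spread that may be technical only. A fit with 1 library left out has 1 library in a group, and its spread comes from the other clone alone. Whether a gene passes in such a fit therefore does not show that a call depends on the library left out. As each genotype was 1 clone, the effect of the genotype and other differences between the clones cannot be told apart.

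ZNF genes are named for the C2H2 zinc finger, a small fold in which 2 cysteines and 2 histidines hold a zinc ion. Arrays of such fingers read DNA base by base. The most numerous ZNF proteins also carry a KRAB domain, which recruits TRIM28 (KAP1) and through it the histone methyltransferase SETDB1 and other corepressors. Many of these proteins bind transposable elements and keep them silent, and their genes lie in clusters, above all on chromosome 19. Other ZNF proteins activate transcription, bind RNA or act on the ribosome.

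The knocked-out proteins are known for binding UAUUUAU in 3′ UTRs, and this motif was therefore searched in the longest annotated 3′ UTR of each member. Sites of ZNF124, ZNF445 and ZNF660 are printed with the motif in capitals, as RNA, 5′ to 3′, from GENCODE 29 transcripts on hg38. ZNF124 was the single member that rose in DKO, and it has 1 site (chr1:247122148-247122176, minus strand). ZNF445, which fell, has 2 sites (chr3:44442947-44442975 and chr3:44436522-44436550, minus strand). ZNF703, which also fell, holds the motif too and is not shown. ZNF660 has 6 sites, of which 5 overlap in a repeat of UAUU and 1 of these is shown (chr3:44598462-44598490, plus strand), and it passed the test in neither direction.
ZNF124, base 1703 of the 3′ UTR: auaccauucauUAUUUAUuaaguggugua
ZNF445, base 3611: gguugggugcuUAUUUAUcuguuugccau
ZNF445, base 10036: aaaugcuugagUAUUUAUcauguaaauac
ZNF660, base 3284: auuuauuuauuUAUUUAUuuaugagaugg

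Promoters of ZNF124 and ZNF445 are shown because these are the members that differed most in each direction within the KRAB class. They are 300-base windows of RefSeq on GRCh38.p14, from 250 bases before to 50 bases after the annotated start, read 5′ to 3′ on the gene's own strand. Capitals mark GGGCGG, the GC box, or its reverse complement CCGCCC, of which each window holds 2. The ZNF124 window is chr1:247171971-247172270 and the ZNF445 window is chr3:44477621-44477920, both on the minus strand.
ZNF124 promoter: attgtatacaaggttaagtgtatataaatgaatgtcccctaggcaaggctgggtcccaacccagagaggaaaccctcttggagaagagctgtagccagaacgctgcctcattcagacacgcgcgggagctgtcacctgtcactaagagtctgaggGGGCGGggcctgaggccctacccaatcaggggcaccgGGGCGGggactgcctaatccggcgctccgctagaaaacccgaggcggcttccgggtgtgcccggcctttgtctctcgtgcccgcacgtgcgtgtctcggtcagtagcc
ZNF445 promoter: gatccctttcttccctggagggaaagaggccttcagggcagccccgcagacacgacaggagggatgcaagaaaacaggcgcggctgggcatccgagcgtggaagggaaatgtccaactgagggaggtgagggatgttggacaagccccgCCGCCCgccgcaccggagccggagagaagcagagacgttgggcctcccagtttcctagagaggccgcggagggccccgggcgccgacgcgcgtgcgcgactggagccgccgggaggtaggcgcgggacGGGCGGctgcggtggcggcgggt

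Reads on genes totalled between 9685798 and 16430228 per library, so that 3 counts stood for 0.183 to 0.310 CPM, well under the level of any member. Transcripts of both targeted genes were still present in DKO: ZFP36 (TTP) was at 26.7 ± 4.74 CPM in control and 36.8 ± 0.897 CPM in DKO, and ZFP36L1 (taken as BRF1) at 122.1 ± 18.6 and 132.5 ± 20.3 CPM (SD, n = 2). Neither passed the edgeR test (adjusted p = 0.207 and 0.775). All 10 hepatocyte and hepatoma markers were detected, with summed levels of 26409 to 27529 CPM in control and 25438 to 28726 CPM in DKO, although single markers differed: AFP was at 7565 and 8081 CPM in control and 3708 and 3385 CPM in DKO, and APOB at 8786 and 6540 CPM in control and 13177 and 9946 CPM in DKO. Of 5 blood markers, 3 had no counts and the sum was at most 1.07 CPM. Of 5 stromal and endothelial markers, VWF and CDH5 had no counts, and the sum, mostly COL1A2, was 81.1 to 127 CPM in control and 122 to 125 CPM in DKO. Of 4 intestinal and other epithelial markers, KRT5 and KRT14 had no counts, VIL1 was at 387 to 461 CPM, and CDX2 at 41.7 and 48.4 CPM in control and 11.4 and 13.6 CPM in DKO. The part of these differences in the ZNF results was not tested. Libraries differed within a clone as well: mitochondrial genes took 2.53% and 0.448% of counts in control and 3.59% and 1.16% in DKO, replicate 1 first.

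The expressed ZNF genes were mostly of the KRAB type. A protein pattern for KRAB and at least 1 finger were found in 137 members (54.2%), fingers without KRAB in 113, and no finger in 3, ZNF703, ZNF330 and ZNF738. The KRAB class had a median of 13 fingers and the other finger class a median of 8. Both classes reached 31, in the KRAB class with ZNF91, and the range over all members was 0 to 31. Members with KRAB were not spread evenly over the genome. Chromosome 19 held 86 of them (62.8%) but 23 of the members with fingers and no KRAB (20.4%), and it held 110 of all 253 members (43.5%) against 7.07% of all tested genes. The KRAB pattern was widened after it was seen to miss known KRAB proteins, and as first written it found 76 members with fingers. The widened pattern may still miss KRAB domains. Here and below, no KRAB means only that the pattern was not found, so comparisons between the classes carry this limit. Finger numbers are likewise matches to a pattern, which may miss fingers, and no finger means that none matched.

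The median member was at 23.7 CPM over the 4 libraries. This compares with 27.0 CPM for all tested genes and 48.8 CPM for tested genes at or above 10 CPM. All members together took 1.04% and 0.899% of counts in control and 1.03% and 0.867% in DKO, and the ranges of the clones overlapped. Per kilobase of exon, which allows levels of different genes to be compared, the median member was at 4.58 CPM/kb over the 4 libraries. The highest were ZNF146 at 42.9, ZNF787 at 41.2, ZNF124 at 39.5, ZNF703 at 37.9 and ZNF593 at 36.7 CPM/kb. These neighbours in the order overlapped in their library values, since ZNF146 ranged from 38.4 to 48.7 and ZNF787 from 34.1 to 46.9 CPM/kb.

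Few expressed ZNF mRNAs passed the main test between the clones, and more passed in some of the alternative runs given below. By edgeR's quasi-likelihood test with an adjusted p under 0.05, 1 member was higher in DKO, 6 were lower and 246 did not pass. This is 2.77% of members, against 5.37% of all 13359 tested genes (2.24% higher and 3.14% lower) and 4.8% of the 9296 tested genes at or above 10 CPM. The median log2 fold change, DKO over control, was -0.02 over the members and 0.00 over all tested genes, with 121 members above 0 and 132 below. The middle range, from the 10th to the 90th percentile, was -0.40 to 0.34 for members and -0.58 to 0.54 for all tested genes. The DKO libraries lay on one side of both control libraries for 82 members (32.4%), above for 28 and below for 54, against 49.9% of all tested genes. In RNA of whole cultures, fewer cells expressing a gene and less RNA per cell cannot be told apart. These counts rest on few libraries: leaving out control replicate 1 gave 28 members higher and 16 lower, or 17.4% against 16.4% of all tested genes, so the lower share of members did not hold there. Leaving out either DKO library gave 0 higher and 1 lower, or 0.395% against 1.83% without replicate 1 and 1.77% without replicate 2.

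**Figure D1:**
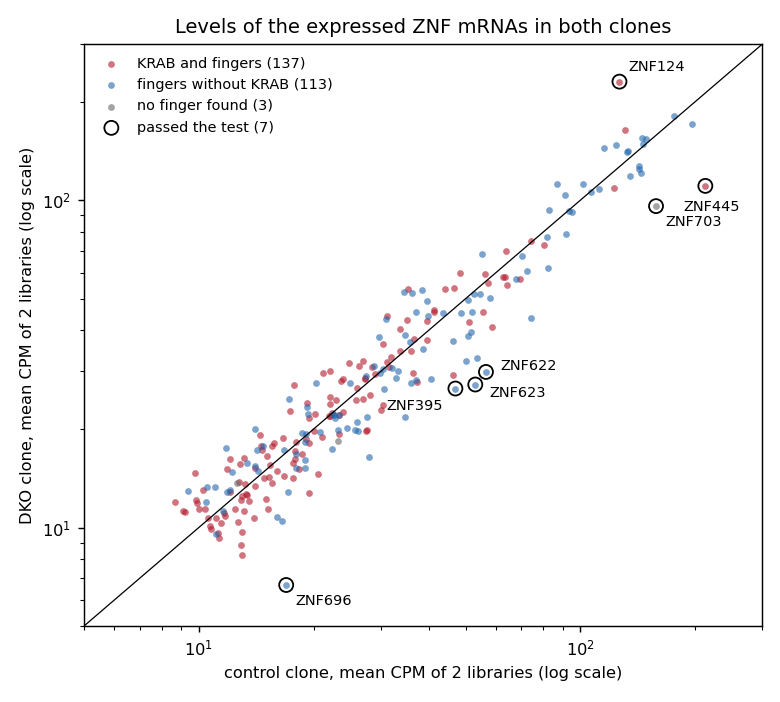
Mean level of each of the 253 ZNF mRNAs in the control clone (x axis) and the DKO clone (y axis), in CPM on log scales, with 2 libraries a clone, coloured by protein class; the diagonal marks equal levels. Most points lie near the diagonal, and the 7 circled genes passed the test, ZNF124 above the line and 6 below it.

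ZNF124, a KRAB protein with 8 fingers, was the single member that rose. Its gene lies near the end of the long arm of chromosome 1 (247121975 to 247172016, hg38). Its levels were 154 and 99.5 CPM in control replicates 1 and 2 and 212 and 248 CPM in DKO replicates 1 and 2. Both DKO libraries were above both control libraries, and the gap was wider between the control libraries than between the DKO libraries. The means were 126.6 ± 38.4 and 230.2 ± 25.7 CPM (SD, n = 2), a 1.82-fold rise (log2 fold change 0.88, SE 0.22, edgeR adjusted p = 0.0293). It passed in 1 of the 4 fits that left out a library, the fit without control replicate 1, and in the others the log2 fold change was 0.62 to 1.01 with adjusted p = 0.0674 to 0.298. With libraries scaled to the spike-ins, which moved the median of all tested genes to -0.68, its log2 fold change was 0.24 (edgeR adjusted p = 0.738).

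The ZNF genes beside ZNF124 were also higher in DKO in value, without passing the test. ZNF670, also of the KRAB class, had 20.8 and 14.8 CPM in control and 28.7 and 25.6 CPM in DKO (log2 fold change 0.63, edgeR adjusted p = 0.126). ZNF669 and ZNF695 stood at 0.40 and 0.34 on the log2 scale (adjusted p = 0.334 and 0.442). Further out, ZNF496 and ZNF672 were at -0.05 and 0.01. The 28 tested genes without a ZNF symbol that lie around ZNF124 had a median log2 fold change of 0.28.

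ZNF445 was the KRAB member that fell. It has 14 fingers, is known to help maintain genomic imprints, and its gene lies on chromosome 3 (44431720 to 44477670). Its mRNA was at 217 and 209 CPM in control and 129 and 91.7 CPM in DKO. The clones did not overlap, and the lower DKO value was that of replicate 2. The mean fell from 212.6 ± 5.72 to 110.6 ± 26.7 CPM (log2 fold change -0.94, SE 0.21, edgeR adjusted p = 0.0159), and it passed in 3 of the 4 fits that left out 1 library, but not without DKO replicate 2 (-0.73, adjusted p = 0.369).

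ZNF622, the human counterpart of a yeast factor for the maturation of the large ribosomal subunit, lies on chromosome 5 (16451519 to 16465792). It has 3 fingers and no KRAB. Its levels were 46.8 and 66.4 CPM in control and 23.4 and 36.4 CPM in DKO, replicate 1 the lower in both clones. It fell from a mean of 56.6 ± 13.9 to 29.9 ± 9.21 CPM (log2 fold change -0.91, SE 0.25, edgeR adjusted p = 0.0473). It did not pass without DKO replicate 1 (-0.61, adjusted p = 0.552) or without control replicate 2 (-0.60, adjusted p = 0.120).

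The other 4 members that fell all lie on chromosome 8. Of all 451 tested genes on that chromosome, 61 passed the test as lower and 8 as higher, with a median log2 fold change of -0.24. ZNF696, with 9 fingers and no KRAB (143289676 to 143298061), was at 16.6 and 17.3 CPM in control and 6.72 and 6.63 CPM in DKO. It had the lowest log2 fold change of all members, with no overlap between the clones: the mean fell from 16.9 ± 0.458 to 6.68 ± 0.0591 CPM (-1.33, SE 0.24, edgeR adjusted p = 0.00505). It was also the single member to pass with libraries scaled to the spike-ins, which moved the median of all tested genes to -0.68. Without DKO replicate 1 or 2 its log2 fold change stayed at -1.32 and -1.35, with adjusted p = 0.0523 and 0.0614. ZNF623, with 13 fingers (143636013 to 143656418), lies close to it and was at 53.8 and 52.3 CPM in control and 31.4 and 23.2 CPM in DKO. The clones did not overlap (log2 fold change -0.95, SE 0.21, edgeR adjusted p = 0.0158), but the value was -0.77 without DKO replicate 2 (adjusted p = 0.363) and -1.16 without DKO replicate 1 (adjusted p = 0.0572).

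ZNF395 and ZNF703 lie on the short arm. ZNF395 (28345585 to 28402701), a transcription factor that hypoxia induces, was at 43.9 and 50.2 CPM in control and 26.1 and 27.1 CPM in DKO (log2 fold change -0.81, SE 0.20, edgeR adjusted p = 0.0302). ZNF703 (37695751 to 37700021), a corepressor known as an oncogene of luminal breast cancer, was at 148 and 168 CPM in control and 101 and 91.1 CPM in DKO (log2 fold change -0.71, SE 0.19, edgeR adjusted p = 0.0443). In both genes all DKO values were below all control values. Each passed in 1 of the 4 fits that left out a library, the fit without control replicate 1, and in the others the adjusted p ranged from 0.0578 to 0.359 for ZNF395 and from 0.119 to 0.449 for ZNF703. FBXO16 overlaps ZNF395 on the same strand with 5 to 20 counts per library, and AC138696.2 overlaps ZNF696 on the opposite strand with 1 to 6 counts. C3orf86 overlaps ZNF445 on the same strand and was not analysed here.

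**Figure D2:**
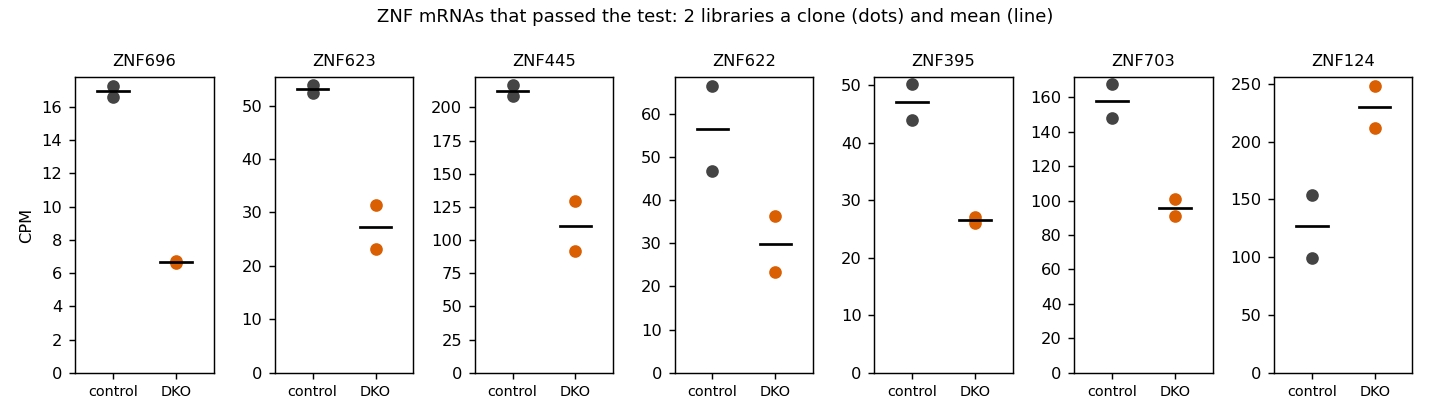
Levels in CPM of the 7 ZNF mRNAs that passed the test, 1 panel each with its own y axis from 0, showing the 2 libraries of each clone as dots and their mean as a line. The libraries of the clones do not overlap in any panel, and ZNF124 is the only one of the 7 with the DKO libraries above.

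Position along the chromosome was compared with the fold changes of the members. For each member, up to 25 tested genes on either side that carry no ZNF symbol were taken, and the median of their log2 fold changes was computed. Over the 253 members, a member's own log2 fold change and that of its neighbourhood had Pearson's r = 0.52 and Spearman's rho = 0.34, and outside chromosome 8 the values were 0.47 and 0.33 (n = 246). Members of 1 cluster share neighbours and all points share the same 4 libraries, so these are descriptions. Of the 19 members with a neighbourhood median at or under -0.3, 18 had a negative log2 fold change, against 6660 of all 13359 tested genes. The median of the 19 was -0.48. Of these 19, 4 passed the test, ZNF696, ZNF623, ZNF445 and ZNF622, while 5.37% of all tested genes passed. The 233 members with neighbourhoods between -0.3 and 0.3 had a median of 0.01. The neighbourhoods of ZNF395 (0.05) and ZNF703 (0.13) were not lower. Over whole chromosomes, 57 of 781 tested genes on chromosome 3 passed as lower, as did 47 of 611 on chromosome 5. On chromosome 8 this held for 61 of 451, against 3.14% of all tested genes.

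**Figure D3:**
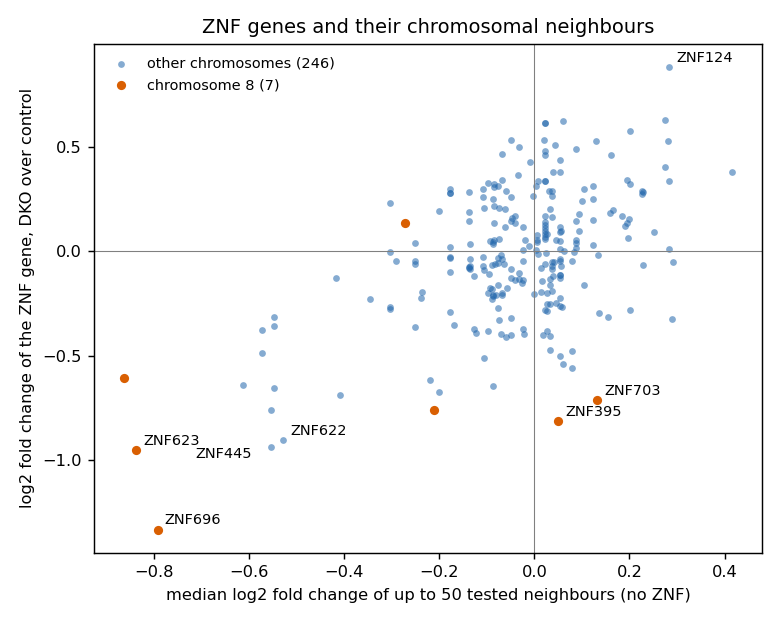
Log2 fold change of each ZNF gene (y axis, DKO over control) against the median log2 fold change of up to 50 tested neighbours without a ZNF symbol (x axis), with members on chromosome 8 in orange. ZNF696, ZNF623, ZNF445 and ZNF622 lie at the lower left beside neighbours with medians of -0.84 to -0.53, and ZNF395 and ZNF703 lie low at neighbourhood medians of 0.05 and 0.13.

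ZNF genes at the end of chromosome 8 were lower in DKO as a stretch, in value. From ZNF696 to the chromosome end, a boundary chosen after its values were seen, 9 ZNF genes of any level were tested, of which ZNF696, ZNF623 and ZNF7 are members. All 9 had both DKO libraries below both control libraries, as had 3501 of all 13359 tested genes. The 9 had log2 fold changes from -1.33 to -0.60 with a median of -0.95. Of the 9, 4 passed the test, against 5.37% of all tested genes. The 2 that passed beside ZNF696 and ZNF623 were ZNF707 and ZNF250, which lie under the level (log2 fold changes -1.09 and -0.97, edgeR adjusted p = 0.0281 and 0.0427). Neither passed without DKO replicate 1 (adjusted p = 0.298 and 0.363) or without DKO replicate 2 (adjusted p = 0.128 and 0.240), and ZNF707 did not without control replicate 2 (adjusted p = 0.0627). With DESeq2, ZNF250 did not pass (adjusted p = 0.0657). ZNF7, a KRAB protein, was at 19.7 and 19.2 CPM in control and 14.1 and 11.4 CPM in DKO (-0.61, adjusted p = 0.143). The neighbours of the 9 genes without a ZNF symbol had medians of -0.88 to -0.79. Without these genes, 250 members remained, of which 1 was higher and 4 were lower (2.0%, against 5.37% of all tested genes).

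A stretch of the short arm of chromosome 3 showed the same direction over 8 members. ZNF620, ZNF621, ZNF445, ZNF852, ZNF660, ZNF197, ZNF35 and ZNF589 had log2 fold changes from -0.94 to -0.31 beside neighbourhood medians of -0.61 to -0.55. These 8 are the chromosome 3 members with a neighbourhood median at or under -0.3, so the stretch was chosen with its values seen. In 6 of the 8, both DKO libraries were below both control libraries, as in 3501 of all 13359 tested genes. ZNF445 was the only 1 of the 8 to pass the test, while 5.37% of all tested genes passed. The 3 members elsewhere on chromosome 3, ZNF654, ZNF148 and ZNF639, stood at 0.53, 0.38 and 0.17. On chromosome 5, ZNF131 was at -0.69 (edgeR adjusted p = 0.0661) beside neighbours at -0.41.

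The members on chromosome 19 gave no call. Of 110 there, 0 passed edgeR's adjusted threshold in either direction, 0 passed with DESeq2, and at an unadjusted edgeR p under 0.05 there were 1 higher and 3 lower. Among the 738 other tested genes of chromosome 19, 14 were higher and 18 lower (4.34%). The ZNF values there ran from -0.56 to 0.62 on the log2 scale with a median of -0.01. With control replicate 1 left out, 11 of the 110 were higher and 4 lower, or 13.6% against 13.3% of the other genes there, so the contrast with those genes did not hold in that fit. With a block for the replicate number 11 were higher and 7 lower, or 16.4% against 24.3%.

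**Figure D4:**
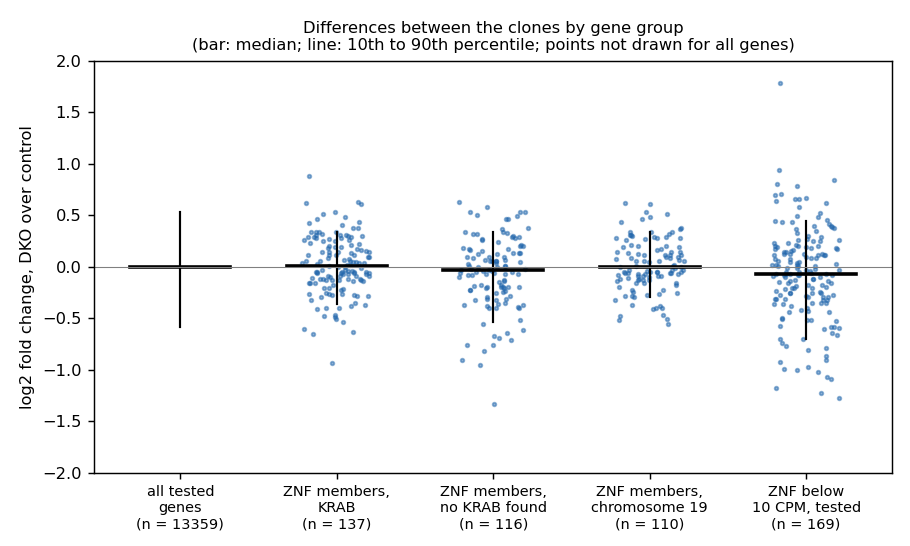
Log2 fold changes, DKO over control, of ZNF genes in 4 groups beside the range of all 13359 tested genes; each point is a gene, the bar is the median and the vertical line runs from the 10th to the 90th percentile. The median of every group lies close to 0, and the 169 tested ZNF genes under 10 CPM spread the most of the ZNF groups.

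By protein class, the KRAB members had a median log2 fold change of 0.01. Of these, 1 was higher (ZNF124), 1 was lower (ZNF445) and 135 did not pass. The called share was 1.46%, against 5.37% of all tested genes. ZNF91 is a KRAB protein, with 31 fingers found by the pattern, that is known to repress SVA retrotransposons. It was at 161 and 101 CPM in control and 194 and 133 CPM in DKO, and its clones overlapped (0.34, edgeR adjusted p = 0.452). ZNF460 was at 136 and 109 CPM in control and 123.9 and 93.5 CPM in DKO (-0.16, adjusted p = 0.717). ZNF274, which binds the 3′ ends of other ZNF genes and recruits SETDB1 there, was at 23.7 and 31.6 CPM in control and 20.1 and 19.6 CPM in DKO. Its DKO libraries were below both control libraries, and the difference did not pass (-0.48, adjusted p = 0.252). Members with fingers and no KRAB had a median of -0.03, with 0 higher, 4 lower and 109 that did not pass. Their called share was 3.54%.

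The corepressor machinery that KRAB proteins recruit was measured alongside. Of 36 genes on that list, 0 were higher, 1 was lower and the median log2 fold change was 0.01. The called share was 2.78%, against 5.37% of all tested genes. CHD3, a helicase of the NuRD deacetylase complex, fell from 112 and 109.5 CPM in control to 60.8 and 59.0 CPM in DKO (-0.88, SE 0.19, edgeR adjusted p = 0.0145). It did not pass without DKO replicate 1 or 2, with -0.88 in both fits (adjusted p = 0.215 and 0.227), or with libraries scaled to the spike-ins (adjusted p = 0.0920). TRIM28 was at 662 and 1011 CPM in control and 645 and 842 CPM in DKO, and its clones overlapped (-0.16, adjusted p = 0.779). SETDB1 was at 57.1 and 51.3 CPM in control and 45.5 and 41.9 CPM in DKO, without overlap, but the difference did not pass (-0.30, adjusted p = 0.407).

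Of the 13 members whose proteins act on RNA, ribosomes, ubiquitin or mitosis, 0 were higher and 1 was lower (ZNF622). This is 7.69%, against 5.37% of all tested genes. The median log2 fold change was -0.19, and 10 of the 13 were negative, against 6660 of all 13359 tested genes. ZNF106, an RNA-binding protein, was at 195 and 198 CPM in control and 193 and 148 CPM in DKO (-0.20, edgeR adjusted p = 0.628). ZNF207 (BuGZ), which acts at the spindle, was at 145 and 121 CPM in control and 148 and 135 CPM in DKO, and its clones overlapped (0.10). ZNF638, an RNA-binding nuclear protein, was at 149.6 and 135 CPM in control and 141 and 107 CPM in DKO (-0.19). ZNF451, a SUMO ligase, ranged from 69.2 to 118 CPM, with the lower value in replicate 2 of both clones.

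The list of transcription and chromatin regulators outside the KRAB class held 30 members. Of these, 0 were higher, 2 were lower (ZNF395 and ZNF703) and the median was -0.01. The called share was 6.67%, against 5.37% of all tested genes. ZNF143, an activator of many promoters, was at 24.7 and 15.99 CPM in control and 27.9 and 27.2 CPM in DKO. Its DKO libraries were above both control libraries without passing the test (0.46, edgeR adjusted p = 0.280). ZNF217, an oncogene of breast cancer, was at 159.8 and 126 CPM in control and 138 and 116 CPM in DKO, and its clones overlapped (-0.15). Among members of neither list, ZNF22 was at 41.3 and 27.5 CPM in control and 57.4 and 47.5 CPM in DKO, again without passing (0.62, adjusted p = 0.114).

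ZNF mRNAs differed between libraries of the same clone in a common direction. On TMM-scaled log2 CPM, replicate 2 minus replicate 1 had a median of -0.25 over members in control and -0.21 in DKO, against 0.00 for all tested genes in both clones. The KRAB class showed -0.37 and -0.26, and members with fingers and no KRAB showed -0.07 and -0.14. Lower values in replicate 2 of both clones were found in 103 of 137 KRAB members (75.2%), in 56 of 113 members without KRAB (49.6%) and in 35.7% of all tested genes. With the KRAB pattern as first written, 50 of 76 were lower in both, with medians of -0.25 and -0.17. KRAB mRNAs were also poorer in G and C, with a median of 42.0% over exons against 47.9% for all tested genes, and replicate 2 had the smaller mitochondrial share in each clone. The part of base composition and of RNA quality in these gaps was not tested.

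ZNF675 had the widest such gap among members that did not pass, with 32.1 and 12.2 CPM in control and 36.5 and 23.4 CPM in DKO. ZNF493 followed with 21.4 and 8.64 CPM in control and 15.6 and 8.89 CPM in DKO. In these KRAB genes replicate 2 was the lower in both clones. The next were ZNF595, with 22.3 and 9.11 CPM in control and 20.1 and 16.1 CPM in DKO, and ZNF681, with 13.6 and 5.92 CPM in control and 17.6 and 11.8 CPM in DKO. In all 4 genes the spread between libraries of a clone was wider than the difference between clones.

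**Figure D5:**
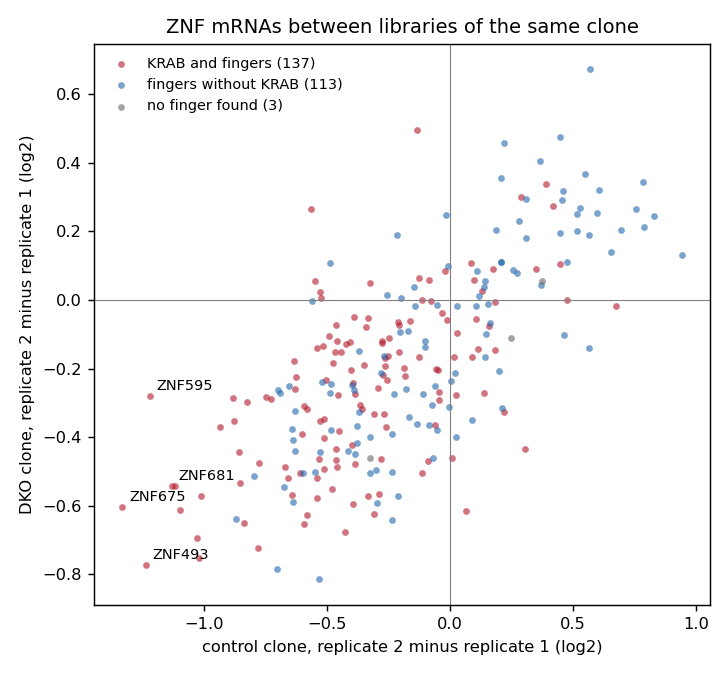
Difference between the 2 libraries of the same clone (replicate 2 minus replicate 1, log2 CPM) for each ZNF mRNA, control clone on the x axis and DKO clone on the y axis, coloured by protein class. Most KRAB members lie at the lower left, where replicate 2 is the lower in both clones (103 of 137).

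The UAUUUAU motif occurred in the longest 3′ UTR of 109 of 252 members with one (43.3%), against 36.0% of tested protein-coding genes and 37.3% of those at or above 10 CPM. Members' longest 3′ UTRs were also longer, with a median of 1977 bases against 1391, and per kilobase the motif was about as frequent, at 0.332 against 0.317. In the shortest annotated 3′ UTR the share was 15.5% against 17.6%. Members with the motif had a median log2 fold change of 0.07 and those without it -0.06, and all tested protein-coding genes gave 0.04 and -0.03. Of the 7 members that passed, ZNF124, ZNF445 and ZNF703 hold it. ZNF26 had the most, 7 sites, and was at 13.1 and 12.8 CPM in control and 13.0 and 11.9 CPM in DKO (-0.05). ZNF660, whose repeated sites are shown above, was at 24.0 and 14.1 CPM in control and 19.5 and 11.02 CPM in DKO (-0.31). Which 3′ UTR Huh7 cells use was not tested.

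Promoter windows were given for 225 members and searched on both strands for 3 motifs, none of which contains another. ACTACAA, the core of a site bound by ZNF143, was in 17 (7.56%), against 3.14% of 15842 protein-coding promoters and 3.99% of those of tested genes. GGGCGG was in 149 (66.2%), against 58.5% and 70.8%. AAGATGGCG, from the site of YY1, was in 8 (3.56%), against 2.74% and 4.17%. The 3 members with ACTACAA that had the highest CPM are shown with 10 bases on either side on the strand that holds the motif, from RefSeq windows on GRCh38.p14. In ZNF444 (chromosome 19) it lies on the strand opposite to the gene, and in ZNF451 (chromosome 6) and ZNF121 (chromosome 19) on the gene's strand.
ZNF444: ctcaccccgaACTACAActcccaggaa
ZNF451: gcggacccgaACTACAAttcccagcat
ZNF121: ccgggaagaaACTACAAtttctgtgtt

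None of the 17 members with ACTACAA is among the 7 that passed the test. With 2.77% of all members passing, 17 genes are too few to tell whether they differ from the rest. ZNF444 was at 111 and 179 CPM in control and 112 and 131 CPM in DKO, and its clones overlapped (log2 fold change -0.25, edgeR adjusted p = 0.601). ZNF451 and ZNF121 stood at 0.20 and -0.03 on the log2 scale.

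ZNF genes under the level of 10 CPM gave few calls as well. Of 169 with enough counts to be tested, 0 were higher and 2 were lower, or 1.18% against 5.37% of all tested genes. The 2 were ZNF707 and ZNF250, both in the stretch at the end of chromosome 8. The median log2 fold change of the 169 genes was -0.07. Their 10th to 90th percentile range, -0.70 to 0.44, was wider than that of the members, at lower counts.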

How the data were processed

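RNA was depleted of rRNA after ERCC spike-ins were added, and sequenced as single reads of 80 bases. The authors deposited raw counts per gene and library. Build hg38, DESeq2, STAR 2.5.3a and, from Subread 1.6.3, featureCounts are named per the submitters' processing notes. Not given in the sources used here are the annotation, the strand setting and the treatment of multi-mapping reads, so counts of near-identical ZNF paralogs, overlapping and antisense genes are uncertain. Spike-ins (92 rows) were left out of library sizes. DKO was compared with control by the quasi-likelihood test of edgeR 4.0.16 (R 4.3.3; filterByExpr, TMM, group as the only term) over 13359 genes, with Benjamini-Hochberg adjustment and a threshold of 0.05. An exact permutation test of 2 against 2 libraries cannot go below p = 0.333 for a single gene. Libraries of a clone differed by more than counting noise (chi-square per degree of freedom 33.6 and 27.1). Counting precision is an upper limit, since reads carry no molecular identifiers.

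Classes came from proteins translated from GENCODE 29: KRAB by a pattern of its A box, and C2H2 fingers by their spacing of cysteines and histidines, both widened after the data were seen. Named members were those that passed, the highest in level and in fold change, those at the rule's limit, the widest within-clone gaps and the leading members of each list. The members and lists were chosen with earlier results of these data known. Alternatives were DESeq2 1.42.0, RLE factors, spike-in totals, no filter, GC and length trends removed, a replicate block, other levels and each library left out. On simulated data of this comparison with 13359 genes, the test recovered 63.1% of changes of 1 log2 unit and 95.3% of changes of 2. Of the calls there, 5.24% were unchanged genes. Smaller changes and a shift shared by replicate number were not simulated. As 222 members had fold changes under 0.5 log2 units, these figures do not tell whether members that did not pass differ.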

Additional observations from a re-analysis of the deposited data

How the results depend on the processing

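None of the 7 members that passed the test changed sign in any alternative run, and RLE factors (723 genes called, against 718), DESeq2 (692) and levels of 5 or 20 CPM kept the counts of members within 1.5 times. Scaling to spike-in totals shifted the median of all genes to -0.68 and of the members to -0.66. It gave 329 genes called, 0 members higher and 1 lower, or 0.395% of members against 2.46% of all tested genes. Without the filter on low counts, 1194 genes were called. With GC and length trends removed, 2026 were called, with 5 members higher and 22 lower, or 10.7% of members against 15.2% of all tested genes. With a replicate block, 4021 were called, with 27 members higher and 30 lower, or 22.5% of members against 30.1% of all tested genes. For this block the labels give only shared numbers, and the within-clone gaps of control and DKO had r = 0.4544 over genes. Leaving out 1 library gave 237 to 2193 genes, 0 to 28 members higher, 1 to 16 lower and member medians of -0.11 to 0.11. Each such fit has 1 library in a group and takes its spread from the other clone alone, and the cause of these ranges was not tested. In the shortest 3′ UTR, 15.5% of members held UAUUUAU. Although 3 counts stand for at most 0.310 CPM, under the level of any member, this does not measure how precisely a member was counted. Over the 4 fits with a library left out, log2 fold changes ranged from -1.39 to -1.28 for ZNF696 and from -1.29 to -0.60 for ZNF622. Passing or not in these fits cannot show which library a call depends on.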

Other observations

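Other families of finger genes were measured beside the ZNF genes. Of 73 tested ZFP, ZKSCAN, ZSCAN and ZBTB genes, 2 were higher in DKO, 2 were lower and the median log2 fold change was -0.04. The called share was 5.48%, close to the 5.37% of all tested genes. ZFP91, a ubiquitin ligase with zinc fingers, was at 49.0 and 26.9 CPM in control and 75.9 and 61.3 CPM in DKO, with all DKO values above (0.87, SE 0.24, edgeR adjusted p = 0.0491). ZBTB44 was at 27.9 and 18.9 CPM in control and 47.9 and 40.7 CPM in DKO (0.94, SE 0.22, edgeR adjusted p = 0.0235). Both rose, and in both the control libraries differed, replicate 2 being the lower.

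ZBTB16 (PLZF), a transcriptional repressor, fell from 13.7 and 15.7 CPM in control to 7.20 and 8.16 CPM in DKO (-0.92, SE 0.25, edgeR adjusted p = 0.0417). ZBTB47 fell from 5.58 and 6.16 CPM to 2.43 and 2.80 CPM (-1.14, SE 0.31, edgeR adjusted p = 0.0437). Neighbourhood medians, taken as for the ZNF genes, were 0.20 for ZFP91, 0.53 for ZBTB44, 0.52 for ZBTB16 and -0.56 for ZBTB47. Each of these 4 genes passed in 1 of the 4 fits that left out a library, the fit without control replicate 1. In the other fits their adjusted p ranged from 0.0672 for ZBTB44 without control replicate 2 to 0.402 for ZBTB16 without DKO replicate 1. With libraries scaled to the spike-ins, which moved the median of all tested genes to -0.68, ZBTB47 alone of the 4 passed (edgeR adjusted p = 0.0401). With DESeq2, ZBTB47 and ZBTB16 did not pass (adjusted p = 0.107 and 0.0519).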
